A study of Mus musculus with 2 samples.

Results

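Focal adhesion kinase, encoded by PTK2, and 9 genes that work with it at the sites where cells grip their surroundings were examined in 2 neuroendocrine tumor xenografts. The 10 genes were PTK2, PTK2B, SRC, YES1, FYN, PXN, BCAR1, TLN1, VCL and ILK. They were taken by symbol from a table of 57011 gene labels, and each of the 10 had exactly 1 row of its own, with 0 rows merged with another gene. One library came from a metastatic gastroenteropancreatic neuroendocrine tumor carried in the peritoneal cavity, and the other from a primary tumor of the same type carried in the flank. Both were grown in athymic nude mice of the Foxn1nu strain, which lack T cells but keep other host cells, and no treatment was given to either. The titles of the 2 libraries share a name, with met added for the metastatic one. Whether a single patient gave both tumors is not stated by the labels. The origin of the tumor and the site of the graft differ together and cannot be told apart.

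Cells attach to the matrix around them through integrins, receptors that gather into patches called focal adhesions. Talin and vinculin tie the inner end of the integrins to actin filaments. Focal adhesion kinase is drawn to these patches, phosphorylates itself and thereby binds a kinase of the Src family, and the pair then phosphorylates scaffold proteins such as paxillin and p130Cas, which pass the signal on to proteins that shape the cytoskeleton. In tumors this pathway is known for its part in migration, invasion and survival after loss of attachment, and inhibitors of the kinase have been tested in cancer.

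Levels are FPKM, which divide fragment numbers by transcript length, so they can be compared between genes, and by a total of fragments. It is not known if that total differed between the columns, and the deposited values may therefore differ by depth as well. The columns summed to 885319 FPKM in the metastatic and 784987 FPKM in the primary library. Each group held 1 library, so there is no replicate spread, no test and no p-value, and every difference below is a difference between these 2 libraries. Log2 ratios compare the metastatic with the primary library after 1 FPKM is added to each value, so that low genes appear closer than they are. An entry counts as expressed at 1 FPKM or more in at least 1 library, and the threshold for calling it higher or lower is 2-fold. Among 13811 expressed entries, 9.35% were lower in the metastatic tumor by this threshold and 9.22% were higher, with a median log2 ratio of 0.03. With both columns rescaled to equal sums the median was -0.13, and 12.6% of entries were lower and 7.17% higher.

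The labelled tumor type was checked against marker genes. Chromogranin A, the granule protein encoded by CHGA, was listed at 0 in both libraries. The synaptic vesicle gene SYP stood at 1.96 FPKM in the metastatic and 1.63 FPKM in the primary tumor. Both defining neuroendocrine markers were thus low or listed at 0. A 0 in this table may be an estimate that failed, here and for the markers listed at 0 below, so a lack of CHGA is not shown. Of all expressed entries, 9.35% were lower and 9.22% higher by 2-fold. Of 8 neuroendocrine markers 6 were expressed, 1 of them higher and 3 lower in the metastatic tumor. With a filter of 5 FPKM 1 was lower. With each of 3 scalings, equal column sums among them, and with pseudocounts of 0.1 and 0.5 FPKM 4 were. Lower were PCSK1, at 2.74 FPKM in the metastatic and 19.9 FPKM in the primary tumor, INSM1, at 0.271 and 3.54 FPKM, and SCG2, at 0.340 and 2.62 FPKM. The 1 higher was UCHL1, also the most abundant of the 8, with 705 FPKM in the metastatic and 225 FPKM in the primary tumor. All 6 epithelial markers were expressed, with 1 higher, KRT8, and 1 lower, KRT7, beside the same shares of all expressed entries. With equal column sums 0 were higher, and with a pseudocount of 0.1 FPKM 2 were. The 6 markers summed to 2530 FPKM in the metastatic and 1442 FPKM in the primary tumor. KRT8 accounted for 1423 and 649 FPKM of these sums and KRT18 for 904 and 541 FPKM. KRT7 stood at 61.2 FPKM in the metastatic and 146 FPKM in the primary tumor, and the other 5 had the higher value in the metastatic tumor.

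All 10 genes of the adhesion set were expressed in both tumors, and only PTK2 passed the 2-fold threshold. PTK2 was 2.34-fold lower in the metastatic tumor. The other 9 genes lay between a log2 ratio of -0.57 for PTK2B and 0.58 for BCAR1. With 1 of 10 genes lower by this threshold, the share lies near the 9.35% of all expressed entries, and 0 of 10 were higher, against 9.22% of all entries. Over the 10 genes the median log2 ratio was -0.11, beside 0.03 over all entries. The 10 genes together summed to 348 FPKM in the metastatic and 386 FPKM in the primary tumor.

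**Figure D1:**
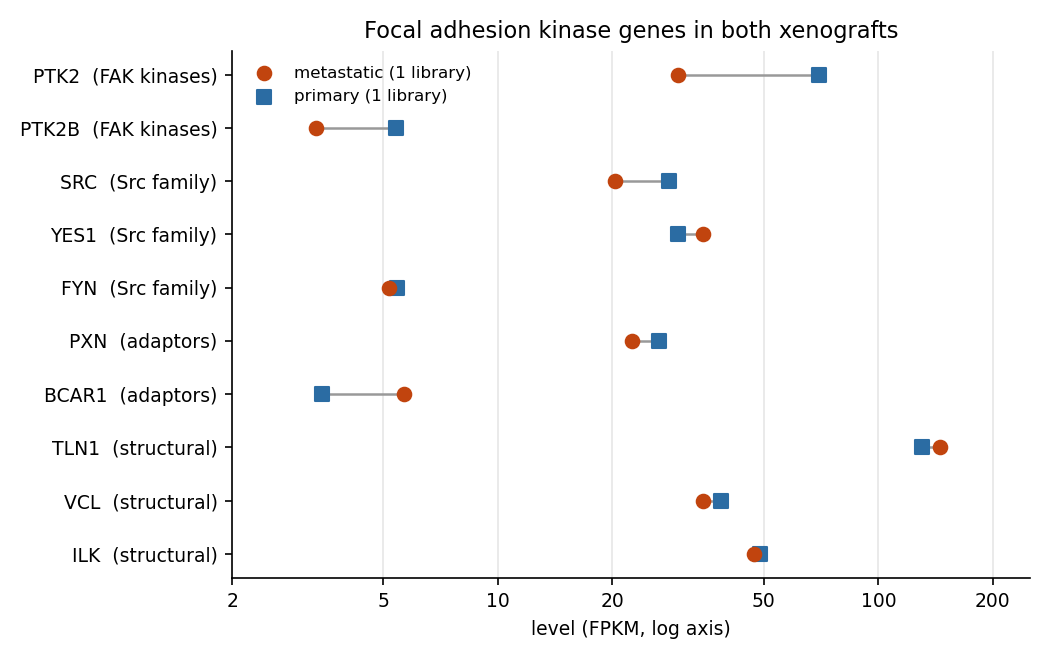
Level of each of the 10 genes in FPKM on a log axis, with a circle for the metastatic and a square for the primary library, 1 library each and therefore no error bars. The gap is widest for PTK2, at 29.8 FPKM in the metastatic and 69.9 FPKM in the primary tumor, while ILK and FYN nearly coincide.

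PTK2 stood at 29.8 FPKM in the metastatic tumor, against 69.9 FPKM in the primary tumor, a log2 ratio of -1.20. In the order of levels among the 10 genes it was the fifth in the metastatic and the second in the primary tumor. Among all expressed entries it held rank 3751 in the metastatic and rank 1674 in the primary tumor, counted from the highest. Its log2 ratio was lower than that of all but 6.36% of expressed entries. Among 2946 entries whose mean level over both libraries was within 2-fold of that of PTK2, 5.87% lay 2-fold or more lower in the metastatic tumor.

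PTK2B encodes Pyk2, the only close relative of focal adhesion kinase, which responds to calcium and is prominent in nerve and blood cells. It stood at 3.31 FPKM in the metastatic and 5.41 FPKM in the primary tumor, a log2 ratio of -0.57, within 2-fold. Both kinases of this pair thus had the lower value in the metastatic library. PTK2 made up 90.0% of the summed FPKM of the pair in the metastatic and 92.8% in the primary tumor, and its level was 8.99 times that of PTK2B in the metastatic and 12.9 times in the primary tumor. Such shares and ratios within a library do not move when the whole library is rescaled. The sum of the pair was 33.1 FPKM in the metastatic and 75.3 FPKM in the primary tumor.

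**Figure D2:**
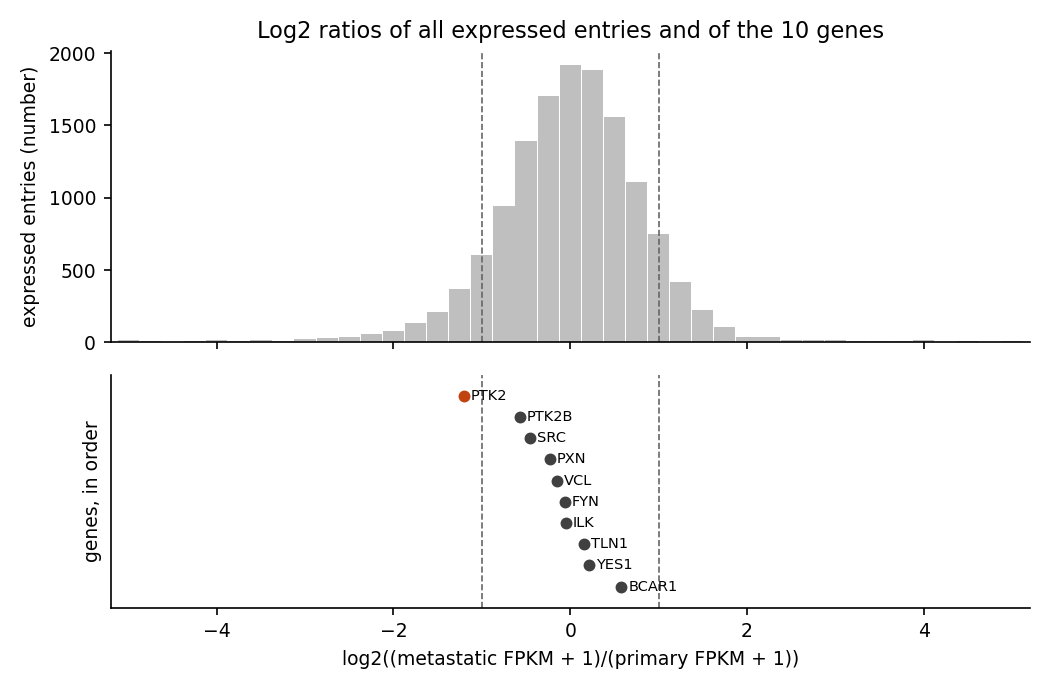
The upper panel counts all 13811 expressed entries by log2 ratio in bins of 0.25, with 15 entries beyond the axis placed in the outermost bins, and the lower panel marks the 10 genes on the same axis in order. Dashed lines mark a 2-fold difference, and PTK2, at -1.20, is the only gene of the set outside them.

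The Src family kinases bind phosphorylated focal adhesion kinase and phosphorylate it further. SRC stood at 20.3 FPKM in the metastatic and 28.2 FPKM in the primary tumor, a log2 ratio of -0.46. YES1, a close relative that is also widely expressed, stood at 34.7 FPKM in the metastatic and 29.8 FPKM in the primary tumor, a log2 ratio of 0.21. FYN, a further relative with known roles in T cells and neurons, stood at 5.16 and 5.43 FPKM in the metastatic and the primary tumor, a log2 ratio of -0.06.

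None of these 3 kinases passed the 2-fold threshold, and their sum was 60.1 FPKM in the metastatic and 63.5 FPKM in the primary tumor. Their proportions differed more than their sum. SRC made up 33.7% of the sum in the metastatic and 44.5% in the primary tumor, YES1 57.7% and 47.0%, and FYN 8.58% and 8.56%. YES1 was thus at 1.71 times the level of SRC in the metastatic tumor and at 1.06 times in the primary tumor. With LYN and FRK, 2 other family members that were expressed, the sum was 73.7 FPKM in the metastatic and 83.7 FPKM in the primary tumor.

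PXN encodes paxillin, the adaptor that binds the tail of focal adhesion kinase and brings it to the adhesion. It stood at 22.5 FPKM in the metastatic and 26.6 FPKM in the primary tumor, a log2 ratio of -0.23. Paxillin was the main form of its family in both tumors, with 76.7% of the summed FPKM of PXN, TGFB1I1 and LPXN in the metastatic and 74.8% in the primary tumor. LPXN, encoding leupaxin, stood at 2.85 FPKM in the metastatic and 5.25 FPKM in the primary tumor, and TGFB1I1, encoding the paxillin relative Hic-5, at 3.99 and 3.67 FPKM. An antisense label of the paxillin gene, PXN-AS1, stood at 5.93 FPKM in the metastatic and 5.41 FPKM in the primary tumor. The sources used here do not say whether the counting used strand, so reads of the 2 labels may have been shared.

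BCAR1 encodes p130Cas, a scaffold that focal adhesion kinase and Src phosphorylate together. It stood at 5.66 FPKM in the metastatic tumor, against 3.45 FPKM in the primary tumor. Its log2 ratio of 0.58 was the highest of the 10 genes but within 2-fold.

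NEDD9, a relative of p130Cas, had the opposite sign, at 1.53 FPKM in the metastatic and 4.68 FPKM in the primary tumor, a log2 ratio of -1.17. BCAR1 made up 72.6% of the summed FPKM of its 4-gene family in the metastatic and 37.9% in the primary tumor, and NEDD9 19.6% and 51.4%. The level of BCAR1 was thus 3.69 times that of NEDD9 in the metastatic tumor and 0.738 times in the primary tumor. All of these levels are low, and the number of fragments behind them is unknown. Downstream of p130Cas, the adaptor CRKL stood at 14.8 FPKM in the metastatic and 15.5 FPKM in the primary tumor, and the exchange factor DOCK1 at 8.07 and 12.8 FPKM, and neither passed the threshold.

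**Figure D3:**
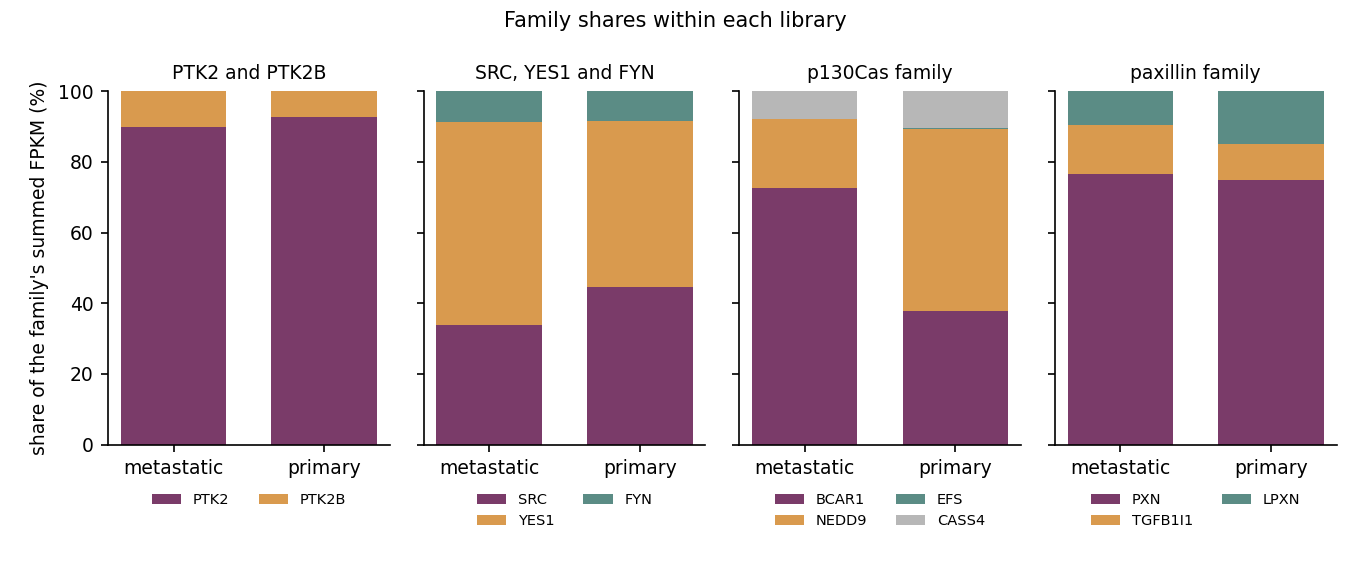
Share of each gene in the summed FPKM of its family, in percent, within the metastatic and the primary library. The proportions differ most in the p130Cas family, where BCAR1 holds 72.6% in the metastatic and 37.9% in the primary tumor.

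The structural genes of the set were abundant and close between the libraries. TLN1 encodes talin, which binds integrin tails, switches integrins on and links them to actin. It had the highest level of the 10 genes in both tumors, at 145 FPKM in the metastatic and 130 FPKM in the primary tumor, a log2 ratio of 0.15. It made up 99.3% of the summed FPKM of TLN1 and TLN2 in the metastatic and 98.9% in the primary tumor.

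VCL encodes vinculin, which joins stretched talin to actin. It stood at 34.6 FPKM in the metastatic and 38.5 FPKM in the primary tumor, a log2 ratio of -0.15. The level of TLN1 was 4.19 times that of VCL in the metastatic and 3.39 times in the primary tumor.

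ILK encodes integrin-linked kinase, a pseudokinase that acts as a scaffold in a complex with a PINCH protein and a parvin. It stood at 47.0 FPKM in the metastatic and 48.8 FPKM in the primary tumor, the smallest absolute log2 ratio of the 10 genes, at -0.05. Its PINCH partner LIMS1 was lower in the metastatic tumor, at 17.2 FPKM against 47.4 FPKM in the primary tumor, a log2 ratio of -1.41. RSU1, which binds PINCH, was higher, at 71.3 FPKM in the metastatic and 29.2 FPKM in the primary tumor, a log2 ratio of 1.26. PARVA, encoding a parvin, stood at 16.2 and 19.3 FPKM in the metastatic and the primary tumor. The level of ILK was thus 2.74 times that of LIMS1 in the metastatic tumor and 1.03 times in the primary tumor.

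Set against its partners within each library, PTK2 took a smaller place in the metastatic tumor. It made up 8.56% of the summed FPKM of the 10 genes in the metastatic and 18.1% in the primary tumor. Its level was 0.634 times that of ILK in the metastatic and 1.43 times in the primary tumor, 1.32 and 2.63 times that of PXN, 1.47 and 2.48 times that of SRC, and 0.205 and 0.536 times that of TLN1. TLN1 made up 41.7% of the sum of the 10 genes in the metastatic and 33.8% in the primary tumor.

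Rescaling the columns moved the 10 log2 ratios together and left PTK2 beyond 2-fold. Its log2 ratio ran from -1.38 to -1.20 over the deposited values and 3 scalings, and between -1.25 and -1.24 relative to the median of all expressed entries. TLN1 was the only gene of the 10 whose log2 ratio changed sign, at -0.02 with equal sums and 0.15 as deposited. YES1 kept a log2 ratio above 0 but came down to 0.04 with equal sums, and BCAR1 to 0.45.

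**Figure D4:**
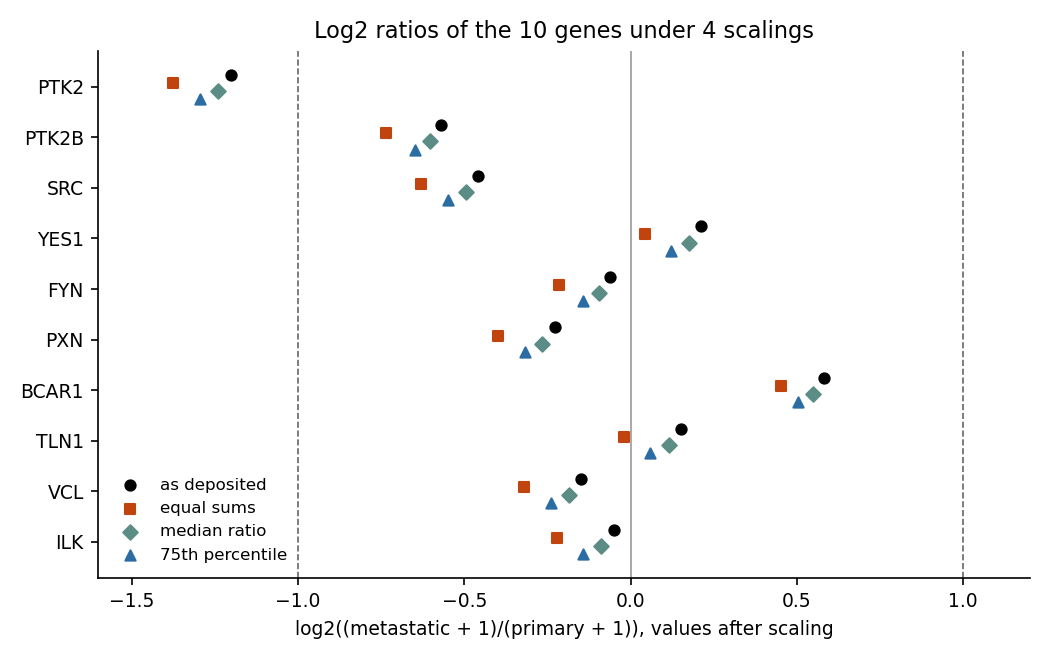
Log2 ratio of each of the 10 genes with the deposited FPKM and with columns rescaled to equal sums, by the median ratio, or by the 75th percentile. PTK2 lies between -1.38 and -1.20 in all 4, left of the dashed 2-fold line, and the other 9 genes lie inside both lines.

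Other genes of the adhesion pathway were examined in 4 lists of 96 genes in all. Of these, 7 stood only in loci merged with another gene and 26 were under 1 FPKM in both libraries. Of the 63 that were expressed, 10 passed the threshold on the lower side and 3 on the higher side in the metastatic tumor. That is 15.9% lower and 4.76% higher, beside 9.35% and 9.22% of all expressed entries. Their median log2 ratio was -0.30, beside 0.03 over all entries. With equal sums, 15.2% of the pathway genes were lower and 4.55% higher, beside 12.6% and 7.17% of all entries.

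The expressed genes that switch focal adhesion kinase and Src on or off were all within 2-fold. Of 15 such genes 7 were expressed, 0 were at least 2-fold higher or lower, and the median log2 ratio was 0.28. Without the filter on low values the median of this list was -0.18. RB1CC1, encoding FIP200, a protein of autophagy that also binds and inhibits focal adhesion kinase, stood at 59.8 FPKM in the metastatic and 36.2 FPKM in the primary tumor, a log2 ratio of 0.71. CSK, the kinase that holds Src family members in their closed form, stood at 56.3 and 40.0 FPKM, and the Src family kinase LYN at 10.7 and 16.2 FPKM in the metastatic and the primary tumor.

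Of 24 adaptors and relatives of paxillin and p130Cas, 19 were expressed, with 4 lower and 0 higher by 2-fold in the metastatic tumor and a median log2 ratio of -0.21. Of all expressed entries, 9.35% were lower and 9.22% higher. PAK1, a kinase that remodels actin, stood at 0.769 FPKM in the metastatic and 4.05 FPKM in the primary tumor, a log2 ratio of -1.51. GRB7, an adaptor that binds focal adhesion kinase, stood at 7.01 and 19.5 FPKM in the metastatic and the primary tumor. The fourth gene beside NEDD9, PAK1 and GRB7 was RAPGEF1, an exchange factor that binds CRK proteins, at 2.52 FPKM in the metastatic and 6.35 FPKM in the primary tumor.

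Of 31 structural adhesion genes, 25 were expressed, with 4 lower and 2 higher by 2-fold and a median log2 ratio of -0.30. The shares over all expressed entries were 9.35% lower and 9.22% higher. EVL, an actin regulator of the Ena/VASP family, stood at 1.92 FPKM in the metastatic and 7.40 FPKM in the primary tumor, a log2 ratio of -1.52. PALLD, an actin cross-linker, stood at 7.85 FPKM in the metastatic and 2.48 FPKM in the primary tumor, a log2 ratio of 1.35. The others past the threshold were LIMS1, TNS1 and LPP on the lower side and RSU1 on the higher. ACTN4 and ZYX, which encode an alpha-actinin and zyxin of many adherent cells, had a listed value of 0 in each library, and a 0 in this table may therefore be an estimate that failed. None of the 10 genes of the set was listed at 0.

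Of 26 integrin subunits, the receptors upstream of the set, 12 were expressed, with 2 lower and 1 higher by 2-fold and a median log2 ratio of -0.50. The shares over all expressed entries were 9.35% lower and 9.22% higher. ITGAE, which pairs to bind E-cadherin, stood at 19.2 FPKM in the metastatic and 6.72 FPKM in the primary tumor. ITGB8 stood at 5.98 and 13.7 FPKM and the laminin receptor subunit ITGA7 at 2.21 and 5.62 FPKM in the metastatic and the primary tumor. The most abundant subunit, ITGB1, which joins many alpha subunits, stood at 169 FPKM in the metastatic and 205 FPKM in the primary tumor.

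**Figure D5:**
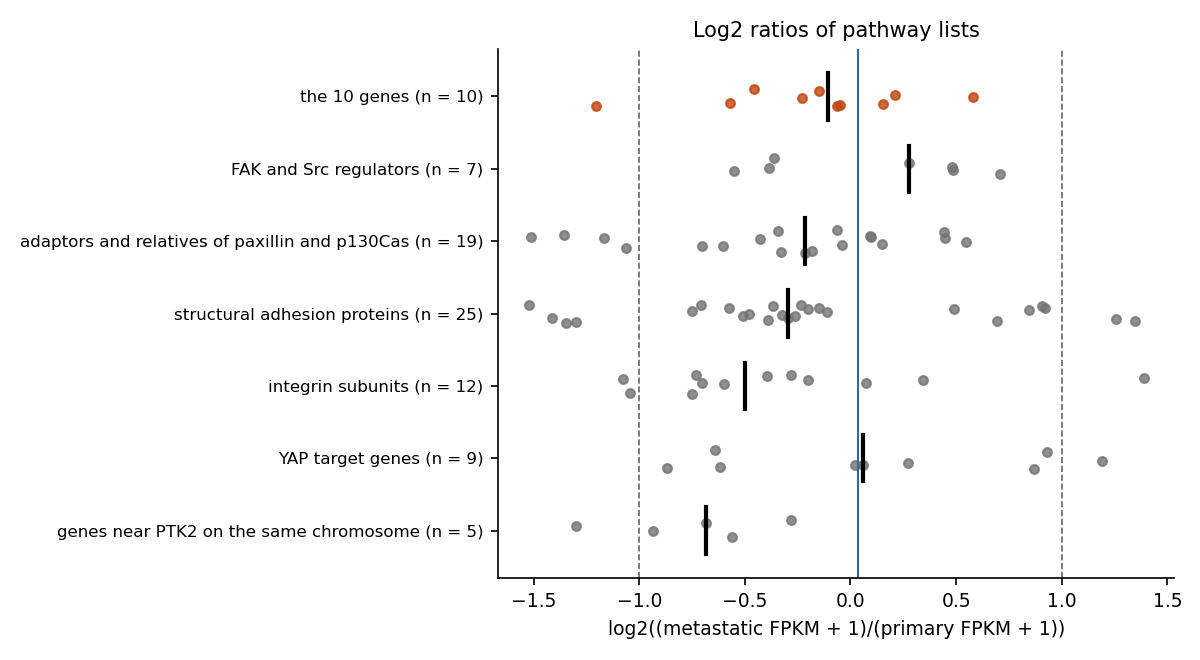
Log2 ratio of every expressed gene in the set of 10 and in 6 lists, with a black bar at each list's median, a blue line at the median of all expressed entries and dashed lines at a 2-fold difference. The medians of 4 lists lie left of the blue line, at -0.21 for the adaptors, -0.30 for structural genes, -0.50 for integrins and -0.68 for genes near PTK2.

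Of all genes in these 6 lists, those nearest to PTK2 in log2 ratio, a likeness over only 2 libraries, were NEDD9 at -1.17, LPP at -1.30 and DENND3, a gene near PTK2 on its chromosome, at -1.30. LPP, which encodes a zyxin-related protein of adhesions, stood at 6.24 FPKM in the metastatic and 16.8 FPKM in the primary tumor.

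Genes used as markers of host or stromal cells also differed between the libraries. The gene labels are human, the host is mouse, and the handling of mouse reads is not given. These values may thus come from tumor cells or from mouse reads that match human transcripts, which was not tested. The same limit holds for the markers of blood cells. Over all expressed entries 9.35% were lower and 9.22% higher by 2-fold. Fibroblast markers summed to 180 FPKM in the metastatic and 557 FPKM in the primary tumor over 9 genes with rows of their own. COL1A2 alone accounted for 149 and 474 FPKM of these sums. Of the 7 expressed ones, 4 were lower, among them the collagen genes COL1A1, COL1A2 and COL3A1. The 1 higher was DCN, at 2.89 FPKM in the metastatic and 0.370 FPKM in the primary tumor. With a filter of 5 FPKM 0 were higher. Smooth muscle and pericyte markers summed to 118 FPKM in the metastatic and 47.0 FPKM in the primary tumor over 9 genes. MYL9 accounted for 81.5 and 12.2 FPKM of these sums. Of the 6 expressed ones, MYL9, DES and CNN1 were higher and 0 lower by 2-fold. Within 2-fold, TAGLN and NOTCH3 had the lower value in the metastatic tumor and RGS5 the higher. Under 1 FPKM in both libraries, ACTA2 had the lower value and ACTG2 the higher. The defining marker MYH11 was listed at 0 in both. Endothelial markers summed to 5.03 FPKM in the metastatic and 27.1 FPKM in the primary tumor over 10 genes. EGFL7 accounted for 1.58 and 19.1 FPKM of these sums and CLDN5 for 1.41 and 5.73 FPKM. Both were lower by 2-fold, and 0 were higher. The 7 others beside ESAM were under 1 FPKM in both libraries. Of these, PECAM1 and CDH5 had the lower value in the metastatic tumor, VWF, TEK, EMCN and ERG had the higher, and KDR was listed at 0 in both.

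The sums of blood cell markers were higher in the metastatic tumor, where LYZ and HBB made up most of them, and most markers were low. Leukocyte and macrophage markers summed to 14.3 FPKM in the metastatic and 6.77 FPKM in the primary tumor, of which LYZ, also made by epithelial cells, accounted for 12.0 and 2.72 FPKM. The other 2 expressed ones had the lower value in the metastatic tumor. CSF1R stood at 0.243 and 1.06 FPKM and LAPTM5 at 0.853 and 1.12 FPKM in the metastatic and the primary tumor. The general leukocyte marker PTPRC stood at 0.0403 FPKM in the metastatic and 0.111 FPKM in the primary tumor, and AIF1 was listed at 0 in both. Also under 1 FPKM in both, CD14 and FCER1G had the lower value in the metastatic tumor, and ITGAM and TYROBP the higher. Platelet and red cell markers summed to 101 FPKM in the metastatic and 36.8 FPKM in the primary tumor, of which the globin gene HBB accounted for 96.0 and 33.5 FPKM, and GP9 was listed at 0 in both. Fewer cells of a type and less RNA per cell cannot be told apart in bulk RNA, and the part of these cells in the levels of the 10 genes was not tested.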

How the data were processed

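RNA was sequenced from 1 metastatic and 1 primary xenograft tumor. The authors deposited FPKM values for 62573 rows, with both libraries side by side. Per the submitters' processing notes, the tools were Cufflinks 2.2.1, STAR 2.7.6a and bcl2fastq 2.18.0.12, with no role or order stated, and the build was human GRCh38, although the labels give mouse as the organism. The sources used here do not give the annotation, the strandedness or the handling of mouse reads, and mouse reads that match human transcripts could add to a value. Without counts, depth is unknown and counting intervals could not be computed. In 6509 low rows, with values from above 0 to under 1 FPKM, 41.9% of ratios between the libraries matched whole numbers up to 5 (tolerance 0.01%), and 0.676% did after multiplication by 1.05. The columns may thus share 1 scaling and carry a difference in depth.

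Rows with the same label were summed. Log2 ratios used a pseudocount of 1 FPKM, a filter of 1 FPKM in at least 1 library and no rescaling. Genes in loci merged with another gene were not counted in lists, and 1 further list is not reported here. Calculations used Python 3.11.15 with pandas 2.3.3. The arithmetic was checked on a copy of the primary column with set changes and no noise. That check says nothing about noise, depth or low values. The 10 genes and all lists were chosen with earlier results of these data known. By rule the text names the 10 genes, up to 3 genes per list by absolute log2 ratio, the 3 listed genes nearest to PTK2, and markers that a result turns on. CRKL, DOCK1, LPXN, TGFB1I1, PARVA, RSU1, RAPGEF1, TNS1, ITGB1, FRK, TLN2, PXN-AS1, AGO2, ACTN4 and ZYX were chosen after their values were seen. Sequences and coordinates of the human genes are not used here.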

Additional observations from a re-analysis of the deposited data

How the results depend on the processing

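The count of genes of the set at least 2-fold lower stayed at 1 and the count at least 2-fold higher at 0 under pseudocounts of 0.1 and 0.5 FPKM, 3 scalings, no filter, a filter of 5 FPKM, the highest row of a label and merged loci left out. At a 1.5-fold threshold 1 gene was lower and 0 were higher. Without the pseudocount PTK2B was 1.63-fold lower and BCAR1 1.64-fold higher, so the counts at 1.5-fold depend on the pseudocount. At a 4-fold threshold 0 genes were lower. The log2 ratio of PTK2 ran from -1.38 to -1.20 and the median of the set from -0.27 to -0.11. Among list counts, a filter of 5 FPKM left 2 in place of 4 adaptors lower, and 2 in place of 1 gene near PTK2 were lower with equal sums, with the 75th percentile and with either smaller pseudocount. Without a filter the endothelial median was -0.09 in place of -1.48, and that of platelet and red cell markers 0.12 in place of 1.02. With equal sums 36.2% of entries past 2-fold were higher, in place of 49.6%. No paired analysis was possible because each group held 1 library, and for the same reason no library could be left out. Read depth is unknown, so the counting error of low values, such as those of PTK2B, FYN, BCAR1, NEDD9, PAK1 and EVL, could not be computed.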

Other observations

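Genes near PTK2 on its chromosome were also examined. All 8 listed genes have a mouse counterpart on the chromosome of Ptk2, within 0.656 Mb of it, and human positions are not used here. Of the 8, 5 were expressed, all 5 with a log2 ratio below 0, from -1.30 to -0.28. By 2-fold 1 was lower and 0 were higher, beside 9.35% lower and 9.22% higher over all entries. The median log2 ratio was -0.68, beside 0.03 over all entries. DENND3, an activator of a RAB GTPase, stood at 3.73 FPKM in the metastatic and 10.6 FPKM in the primary tumor, a log2 ratio of -1.30. TRAPPC9, of a vesicle tethering complex, stood at 3.92 and 8.40 FPKM, and CHRAC1, of a chromatin remodelling complex, at 21.8 and 35.6 FPKM in the metastatic and the primary tumor. AGO2, the small RNA effector and the nearest of the 8 in mouse, stood at 21.97 and 26.9 FPKM in the metastatic and the primary tumor. Its log2 ratio of -0.28 was the smallest in size of the 5, beside -1.20 for PTK2. Genome copy number was not analysed here.

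Target genes of YAP, a coactivator that responds to adhesion and stiffness, went both ways. Of 10 listed genes 9 were expressed, with 1 higher and 0 lower by 2-fold and a median log2 ratio of 0.06, beside 9.22% higher and 9.35% lower over all entries. CCN1, a secreted matrix protein, stood at 105 FPKM in the metastatic and 54.5 FPKM in the primary tumor, and AMOTL1 at 1.29 and 3.18 FPKM. ANKRD1 stood at 1.28 FPKM in the metastatic tumor and was listed at 0 in the primary tumor. With a filter of 5 FPKM 0 of these genes were past the threshold on the higher side, and with a pseudocount of 0.1 FPKM 2 were higher and 1 lower. With equal column sums or a pseudocount of 0.5 FPKM 1 was lower.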
